A study of Mus musculus with 4 samples.

Results

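The heat shock and chaperone genes described here, chosen by name and with array signals already known, are Hspa1a, Hspa1b, Hsph1, Dnajb1, Hspb1, Bag3, Hspa8, Hsp90aa1, Hspd1 and Hspe1. They are 10 of the 18194 genes to which the platform annotation assigns at least 1 probe set of its own, a probe set being the group of probes that reads 1 transcript. All 23 probe sets assigned to exactly 1 of these genes were taken, and no probe set names one of them together with another gene. Hox13dKO replicate 2 is set beside the other 3 arrays because it was selected on its measured signals for these genes, so every difference of that array is given as a description, with no test. Hspa1a, Hspa1b, Hsph1, Dnajb1, Hspb1 and Bag3 (11 probe sets) were grouped as inducible, and Hspa8, Hsp90aa1, Hspd1 and Hspe1 (12 probe sets) as constitutive.

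RNA came from mouse autopods at E11.25, the limb bud tip that becomes hand or foot, from C57BL/6 embryos. The 2 Hox13dKO samples were double homozygotes, Hoxa13-/- together with HoxDdel, which removes Hoxd11, Hoxd12 and Hoxd13 at once, and the 2 control samples were wild type. Each sample was 1 array. The dissected region corresponded to the Hoxd13 expression domain of both fore- and hindlimb buds, and embryos were kept in RNAlater before that cut, per the labels' protocols. The number of embryos behind a sample is not stated in these sources.

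Heat shock proteins are chaperones that hold, refold or hand on unfolded proteins. Heat, toxins and other stress that unfolds proteins release the heat shock factor HSF1, which binds repeats of short GAA and TTC units, the heat shock element, in the promoters of target genes. The inducible HSP70 genes Hspa1a and Hspa1b are among its most responsive targets and have no introns. Constitutive chaperones such as Hspa8 are made in all cells, and early embryonic tissues, the limb bud included, express them at high levels.

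The promoters of the genes that differed in Hox13dKO replicate 2, and the Hspe1 promoter beside them, are shown because they carry heat shock element letters. Sequences are those of RefSeq on GRCm38.p6, read 5′ to 3′ and ending at the base before the annotated start. Capitals mark every GAANNTTC and TTCNNGAA, each its own reverse complement, which is 2 inverted units of the element. The Hspa1a stretch is chr17:34972157-34972406 and the Hspa1b stretch chr17:34959239-34959488, both on the minus strand. The Hspb1 stretch is chr5:135887669-135887918 and the Hspe1 stretch chr1:55087948-55088147, both on the plus strand.
Hspa1a: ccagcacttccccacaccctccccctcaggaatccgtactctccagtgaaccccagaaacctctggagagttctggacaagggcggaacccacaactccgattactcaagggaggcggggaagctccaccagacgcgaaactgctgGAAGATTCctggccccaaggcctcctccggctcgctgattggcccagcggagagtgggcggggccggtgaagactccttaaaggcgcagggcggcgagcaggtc
Hspa1b: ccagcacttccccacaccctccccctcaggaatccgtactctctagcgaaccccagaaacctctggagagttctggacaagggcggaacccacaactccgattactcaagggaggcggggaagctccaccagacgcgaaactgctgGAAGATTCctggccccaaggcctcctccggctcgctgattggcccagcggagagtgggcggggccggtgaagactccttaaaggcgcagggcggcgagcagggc
Hspb1: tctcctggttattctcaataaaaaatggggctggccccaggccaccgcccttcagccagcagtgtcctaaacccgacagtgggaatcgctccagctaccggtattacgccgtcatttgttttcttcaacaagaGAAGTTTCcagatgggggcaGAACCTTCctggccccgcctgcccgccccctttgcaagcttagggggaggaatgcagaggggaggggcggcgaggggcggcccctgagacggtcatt
Hspe1: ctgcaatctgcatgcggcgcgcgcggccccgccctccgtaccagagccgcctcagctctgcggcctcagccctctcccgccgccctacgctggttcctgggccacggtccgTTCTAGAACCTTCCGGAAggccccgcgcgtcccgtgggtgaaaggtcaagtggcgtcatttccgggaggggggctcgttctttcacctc

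Over these 250 bases the Hspa1a and Hspa1b promoters were 98.8% identical, with substitutions C44T, T47C and T249G (Hspa1a base first, positions counted from 1 at the 5′ end of the printed stretch). Both carried GAAGATTC at bases -104 to -97 from the start and a CCAAT box, read on the other strand, at -67 to -63. Hspb1 carried 2 separate matches, at -117 to -110 and -97 to -90. Hspe1 carried 3 overlapping matches from -89 to -72. They form an unbroken run that also matches the 3-unit pattern (GAANNTTC directly followed by NNGAA, or its reverse complement, TTCNNGAA directly followed by NNTTC) at 2 overlapping places, and the same letters lie in a promoter window of Hspd1, whose gene starts beside Hspe1 on the opposite strand. Of 32851 RefSeq windows of 300 bases, 250 before to 50 after a start, 15.1% held a 2-unit match and 0.603% a 3-unit match, with overlapping matches counted on both strands. Windows were given for 8 of the 10 genes, Hspa8 and Hsp90aa1 being the exceptions. Among the other inducible genes, Hsph1 carried a 2-unit match before its start and a 3-unit match after it. In its window 1 these lay at -33 to -26 and at 37 to 49. Bag3 carried a 2-unit match after its start, at 43 to 50, and the Dnajb1 windows carried none.

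**Figure D1:**
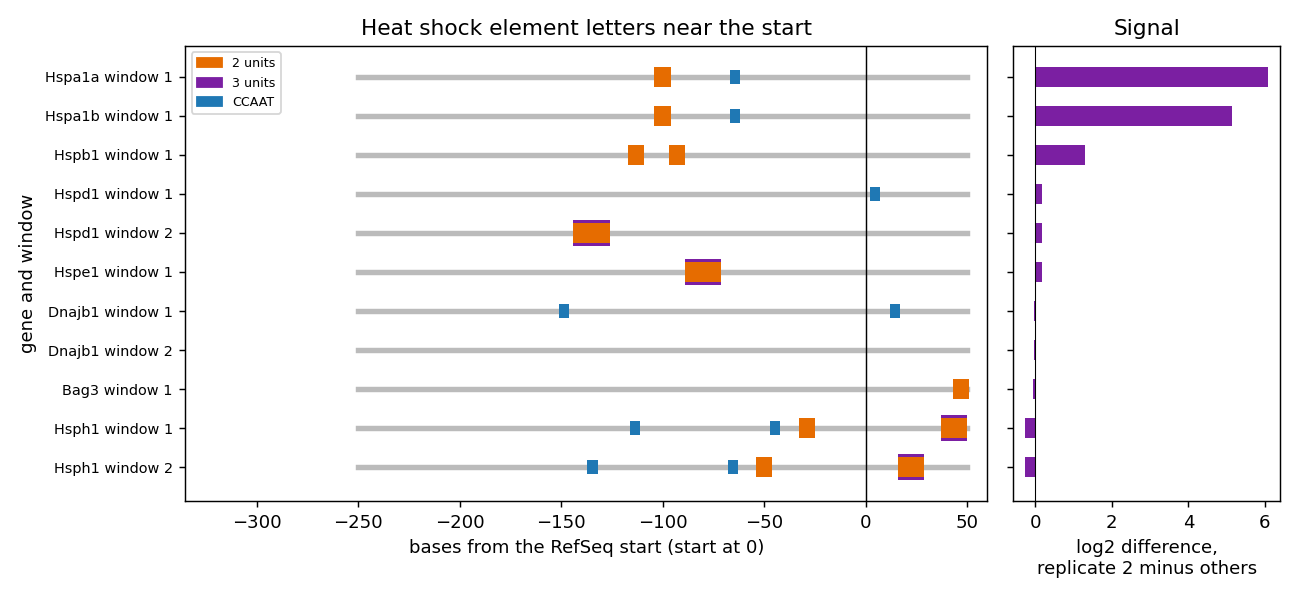
Left, bases from the RefSeq start (horizontal axis) for the 11 promoter windows of 8 heat shock genes, with 2-unit (orange) and 3-unit (purple) heat shock element letters and CCAAT (blue) on either strand. Right, the log2 signal of Hox13dKO replicate 2 minus the mean of the other 3 arrays for the brightest probe set of each gene: windows with element letters occur beside bars near 0 (Hspe1, 0.17) as well as beside the longest bars (Hspa1a, 6.09).

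The arrays were first checked against their labels. Each was scaled by the authors to a trimmed mean of 500.003 signal units. Hoxd13 read 5.79 and 9.58 units in Hox13dKO against 14540 and 16117 in wild type, as the labels require. The limb mesenchyme genes Prrx1, Prrx2, Twist1, Msx1 and Pdgfra were present on every array, with summed signals of 22626 to 28866. The ratio of 5′ to 3′ actin probe signal, which falls with RNA breakdown, was 0.771 in Hox13dKO replicate 2 and 0.473 to 0.764 on the other arrays, and the Gapdh ratio was 1.16 against 1.17 to 1.25.

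Hspa1a and Hspa1b, the stress-inducible cytosolic HSP70 genes, were far higher in Hox13dKO replicate 2 than on any other array. Hspa1a read 3271 units in Hox13dKO replicate 2, against 39.4 in Hox13dKO replicate 1, and 60.1 and 46.6 in replicates 1 and 2 of wild type. The other Hox13dKO array thus lay below both wild-type arrays, and only 1 of the 4 arrays was high. The signal of replicate 2 was 68.2-fold the geometric mean of the other 3 and 54.4-fold the highest of them.

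Hspa1b has 3 probe sets, and all of them set the same array apart. The brightest, 1427127_x_at, read 7798 in Hox13dKO replicate 2 against 285 in the other Hox13dKO array and 205 and 185 in the wild-type arrays (replicates 1 and 2). Probe set 1427126_at read 5731 against 169, 155 and 134 in the same order, and 1452318_a_at read 5340 against 271, 333 and 141. These are 35.3-fold, 37.7-fold and 22.9-fold over the geometric mean of the other arrays. The proteins of Hspa1a and Hspa1b are nearly identical and so are their coding sequences, so signal from one gene may reach probes of the other. How the rise divides between them was not tested.

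Hspb1, a small heat shock protein that holds unfolded proteins and binds actin filaments, was higher in the same array by a smaller factor. Its brighter probe set, 1422943_a_at, read 3440 in Hox13dKO replicate 2 against 1548 in Hox13dKO replicate 1, and 1334 and 1297 in wild-type replicates 1 and 2. That is 2.48-fold over the geometric mean of the other 3, which spanned 1.19-fold among themselves. By 1425964_x_at the signals were 1790 against 1107, 897 and 889, or 1.87-fold. By both probe sets Hox13dKO replicate 1 also lay above both wild-type arrays.

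The other inducible genes did not share this pattern. Hsph1, an HSP110 protein that exchanges nucleotide on HSP70, read 3934 in Hox13dKO replicate 2 against 4850 in Hox13dKO replicate 1, and 5356 and 4043 in wild-type replicates 1 and 2. Replicate 2 was thus the lowest array, and it was the lowest by the other Hsph1 probe set too (3091 against 3297 to 4411). Dnajb1, the main heat-inducible HSP40 cochaperone, read 2264 by its brighter probe set, within the range of the other arrays (2159 to 2551). By its other probe set, 1416756_at, it read 1491 against 1324, 754 and 1344, where wild type replicate 1 stood apart and not Hox13dKO replicate 2. Bag3, a cochaperone that links HSP70 to autophagy, read 475 against 489 to 503, again the lowest value of the 4, though only 0.954-fold the geometric mean of the others.

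**Figure D2:**
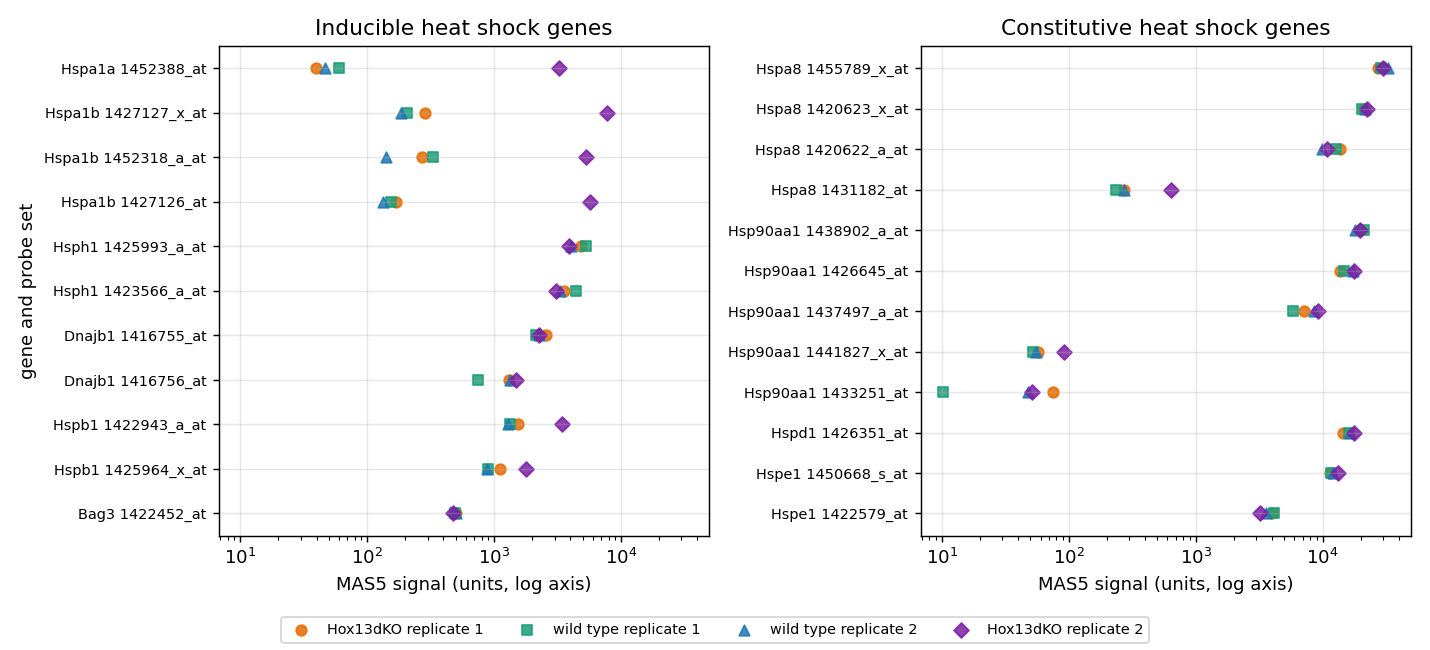
MAS5 signal of each of the 23 heat shock probe sets (log axis, 1 row per probe set) on each of the 4 arrays, inducible genes left and constitutive genes right. Hox13dKO replicate 2 (purple diamonds) lies far to the right for the 4 Hspa1a and Hspa1b probe sets, clear of the others for Hspb1 and for Hspa8 1431182_at, and among or close to the other arrays for most of the rest.

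Among constitutive genes, the 9 bright probe sets differed in Hox13dKO replicate 2 by 0.823-fold to 1.31-fold. Hspa8, the constitutive HSP70, read 29781 by its brightest probe set against 27433 in Hox13dKO replicate 1, and 29028 and 32926 in wild-type replicates 1 and 2. Hsp90aa1, the heat-responsive HSP90 isoform, read 19617 against 19678, 21070 and 18107. In both genes replicate 2 lay within the range of the other arrays. The other bright Hsp90aa1 probe sets read 17596 against 13789 to 17352 and 9218 against 5801 to 8504, with replicate 2 just above wild type replicate 2. Hspd1 and Hspe1 encode HSP60 and HSP10, the partners of the mitochondrial folding chamber. Hspd1 read 17650 against 14615, 16038 and 16531, and Hspe1 read 13152 against 11517, 11655 and 12004, so replicate 2 was highest in both, by 1.12-fold over the geometric mean of the others. A dimmer Hspe1 probe set, 1422579_at, went the other way, with replicate 2 the lowest of 4 (3218 against 3574 to 4177).

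An exception was a dim probe set of Hspa8, 1431182_at. It read 640 in Hox13dKO replicate 2 against 273 in Hox13dKO replicate 1, and 237 and 272 in wild-type replicates 1 and 2, a 2.46-fold difference. The 3 brighter Hspa8 probe sets differed by 0.908-fold to 1.07-fold. A dim probe set of Hsp90aa1, 1441827_x_at, read 91.5 against 52.8 to 57.7, and the other dim one, 1433251_at, read 51.7 against 75.1, 10.2 and 47.9, the lowest of which lay below the floor of 14.1 units used for log2 values. Which transcripts these dim probe sets read is not known here.

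Counted over the 6 inducible genes by their brightest probe set, Hox13dKO replicate 2 was the highest array for 3 genes, the lowest for 2 and in between for 1. Over all 13072 genes with a tested probe set it was the highest for 24.7% and the lowest for 26.5%. The median log2 difference of replicate 2 from the mean of the other 3 was 0.64 over the inducible genes and 0.08 over the constitutive genes, beside 0.0032 over all genes. The inducible median rests on the Hspa1 pair: it was -0.05 without Hspa1a and Hspa1b and -0.03 with the pair counted as 1 gene. It was 0.0027 with Hsp90aa1 counted as inducible. Without probe sets whose names end in _x_at, _s_at or _a_at it was 2.60 over 4 of the 6 genes, the pair among them. That choice by name dropped Hsph1 and Hspb1 altogether. The constitutive median was -0.07 after quantile normalization, under which the brightest Hspa8 and Hsp90aa1 probe sets also turned to -0.25 and -0.17. It was 0.19 without probe sets of those name endings and 0.24 when the probe sets of each gene were averaged.

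By probe set, Hox13dKO replicate 2 was the highest array for 7 of 11 inducible and 7 of 12 constitutive probe sets, against 27.4% of all tested, and the lowest for 3 and 1, against 24.0%.

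At least 2-fold above the highest of the other 3 arrays were 5 of 11 inducible probe sets and 1 of 12 constitutive ones. The 5 were the 4 of Hspa1a and Hspa1b and the brighter of Hspb1, whose other probe set was at 1.62-fold. Over all 27022 probe sets tested the share at least 2-fold above was 0.655% for Hox13dKO replicate 2. The same measure was 0.141% for Hox13dKO replicate 1, 0.107% for wild type replicate 1 and 0.981% for wild type replicate 2. Ranked by the log2 difference of replicate 2, the 4 Hspa1a and Hspa1b probe sets held ranks 1 to 4 of 27022. The brighter Hspb1 probe set was at rank 521 and Hspa8 1431182_at at rank 532.

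**Figure D3:**
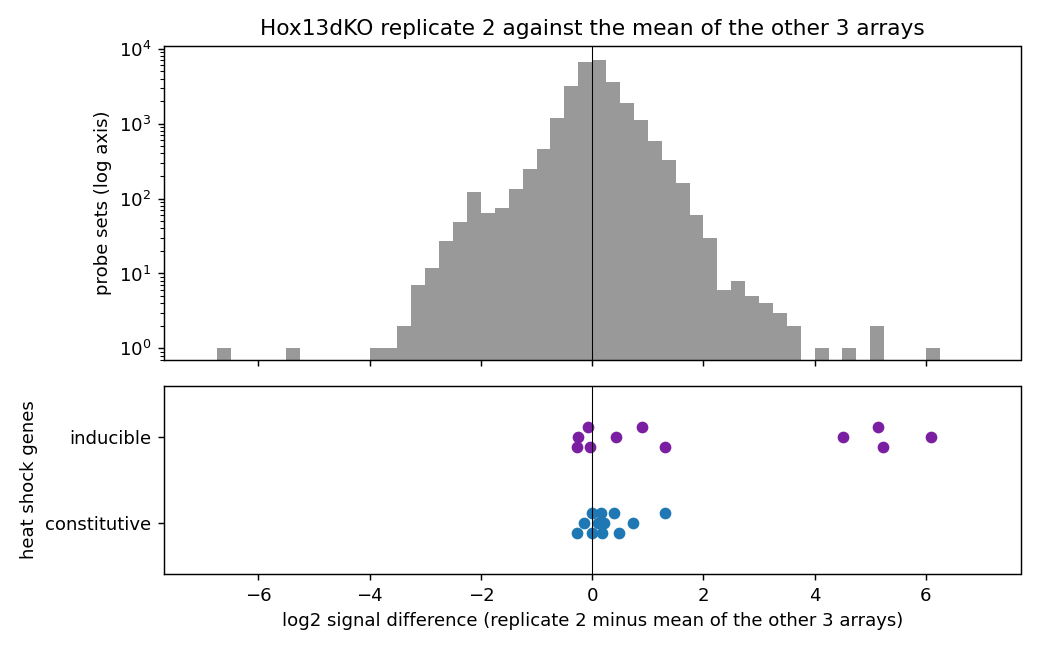
Top, number of probe sets (log axis) by the log2 signal difference of Hox13dKO replicate 2 from the mean of the other 3 arrays, over the 27022 tested. Bottom, the same difference for each heat shock probe set, where 4 inducible points, those of Hspa1a and Hspa1b, lie between 4.52 and 6.09 and the other 19 between -0.28 and 1.31.

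Compared between genotypes, no heat shock gene passed the test. The limma fit of both Hox13dKO arrays against both wild-type arrays called 0 of the 23 heat shock probe sets at an adjusted p of 0.05 (Benjamini-Hochberg over 27022 probe sets), beside 0.207% of all probe sets. At an unadjusted p under 0.05 there were 3, the brightest Hspa1b probe set and both of Hspb1, beside 6.26% of all probe sets. The log2 difference, Hox13dKO minus wild type, was 2.76 ± 1.63 for Hspa1a (SE, limma adjusted p = 0.900) and 2.94 ± 1.20 for Hspa1b (adjusted p = 0.757). For Hspb1 it was 0.81 ± 0.32 (adjusted p = 0.722). Both Hox13dKO arrays lay above both wild-type arrays in 8 probe sets and below them in 0, where 34.6% of all probe sets did not overlap, 16.3% higher and 18.3% lower. The median difference over the heat shock probe sets was 0.13, beside -0.0121 over all.

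Without Hox13dKO replicate 2, the remaining Hox13dKO array was compared with both wild-type arrays, a contrast that leaves out the array that was singled out. It called 0 of 23 heat shock probe sets, beside 0.0407% of all probe sets. At an unadjusted p under 0.05 there were also 0, beside 4.75% of all. The log2 differences were -0.43 ± 0.82 for Hspa1a, 0.55 ± 0.37 for Hspa1b and 0.23 ± 0.19 for Hspb1 (SE). A single array stands for the genotype in this fit and is assumed to vary like the wild type. Without Hox13dKO replicate 1, by contrast, the log2 difference was 5.95 for Hspa1a, 5.32 for Hspa1b and 1.39 for Hspb1 by their brightest probe sets. These values rest on the array chosen for its signals. Without wild type replicate 1 the difference was 3.09 for the Hspa1b probe set 1452318_a_at. Without wild type replicate 2 it was 2.86 for the brightest Hspa1b probe set and 0.90 for Dnajb1 1416756_at. The Hspa1b values of both fits rest on Hox13dKO replicate 2 as well, and a single array stands for wild type in each.

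Other chaperone genes were read from lists of the same pathway, with 77 of 86 listed genes having a tested probe set of their own. Hsf1 itself and Hsp90ab1 were not analysed here. Of the 77, 0 passed the genotype test (lowest limma adjusted p = 0.145; 5 at an unadjusted p under 0.05, beside 7.25% of all genes) and 0 were at least 2-fold above the highest other array in Hox13dKO replicate 2, where the share over all genes was 0.474%. Replicate 2 was the highest array for 29 of the 77 and the lowest for 14, beside 24.7% and 26.5% of all genes. The median log2 difference was 0.04, beside 0.0032 over all genes.

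Cofactors of the HSP70 and HSP90 cycle differed little. Of 28 cytosolic chaperones and cochaperones, replicate 2 was highest for 6 and lowest for 7 (median 0.02, range -0.38 to 0.41). Dnajb4, an HSP40 protein, marked the low end with 929 units against 1053 to 1327. Dnaja4, another, marked the high end with 129 units, inside the range of the other arrays (42.0 to 192). Dnajb5 and Dnajc7, also of the HSP40 family, followed at 0.37 and 0.27.

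Other genes listed as carrying heat shock elements, most of them not chaperones, did not all go the same way. Their promoters were not read here. Replicate 2 was highest for 7 of 9 and lowest for 2 (median 0.26), beside 24.7% and 26.5% of all genes. Metallothionein genes Mt1 and Mt2, which bind zinc and copper, read 1748 and 1732 in replicate 2. On the other arrays Mt1 read 1295 in Hox13dKO replicate 1 and 506 and 799 in wild type, and Mt2 read 1351, 810 and 913, so both Hox13dKO arrays were above both wild-type arrays. Their differences between genotypes, 1.24 ± 0.25 and 0.83 ± 0.18, did not pass (SE, limma adjusted p = 0.162 and 0.203). Hmox1, the haem oxygenase induced by oxidative stress, read 464 against 169, 215 and 277. Zfand2a, an arsenite-inducible zinc finger gene, was lowest in replicate 2, at 723 against 832 to 1130.

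Most chaperones of the ER and mitochondria and the TRiC subunits were close to the other arrays. ER chaperones had replicate 2 highest for 3 of 16 and lowest for 5 (median -0.06), with the disulfide isomerases Pdia3 at 0.47 and P4hb at 0.14, the ER HSP70 gene Hspa5 at 0.14 and Dnajc3 at -0.45. Mitochondrial chaperones and proteases had it highest for 5 of 10 and lowest for 0 (median 0.19). The HSP90 homologue Trap1 (0.30), Lonp1 (0.26) and Clpp (0.24) led, and Grpel1 marked the low end at -0.06. Subunits of TRiC, the cytosolic folding chamber for actin and tubulin, had it highest for 6 of 8 and lowest for 0. Their differences ranged from -0.0049 (Cct8) to 0.21 (Cct5), with Cct7 and Tcp1 at 0.21 and 0.19. Of 4 other small heat shock proteins, Hspb8, the partner of Bag3, read 1061 and 1007 in Hox13dKO against 597 and 511 in wild type, a genotype difference of 0.90 ± 0.18 (SE, limma adjusted p = 0.145). Here both Hox13dKO arrays were alike and above both wild-type arrays. Hspb8, Hspb6, Hspb2 and Hspb7 differed in replicate 2 by 0.55, 0.20, 0.14 and -0.24.

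Heat shock factors and an HSF1-binding protein were dim or flat. Hsf2 read 63.1 in replicate 2 against 21.6 to 92.3 elsewhere, and Hsf4 read 93.9 against 13.6 to 84.4. Hsbp1, which binds HSF1 and restrains it, read 5444 against 4695 to 5370.

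**Figure D4:**
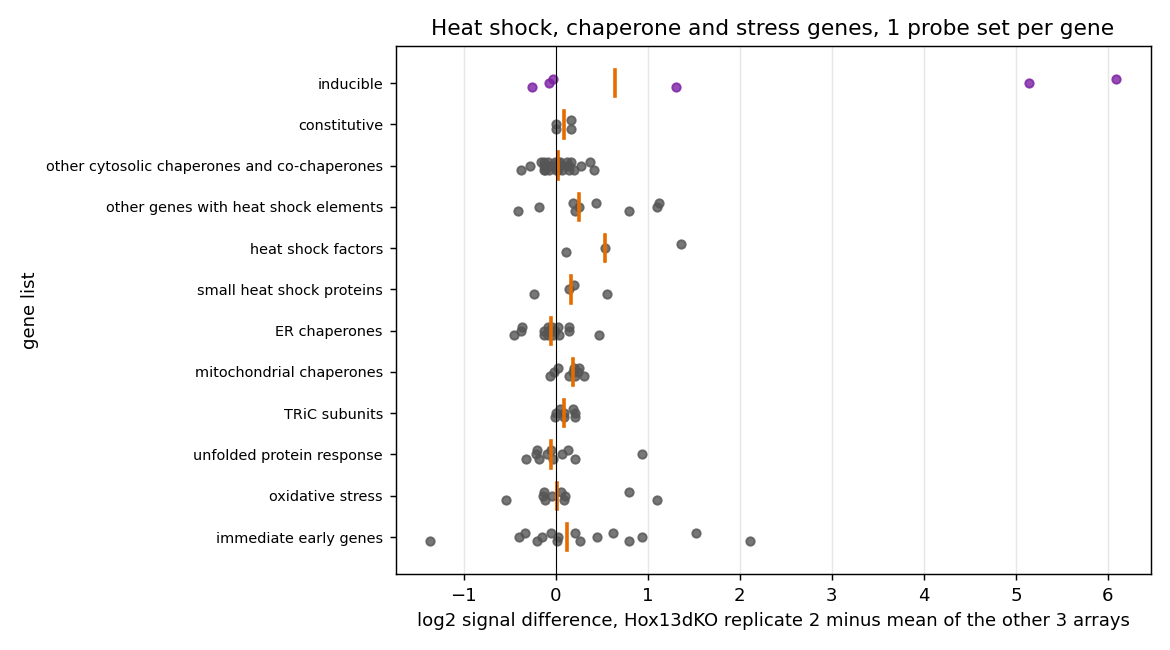
Log2 signal difference of Hox13dKO replicate 2 from the mean of the other 3 arrays (horizontal axis) for each gene of 12 lists, 1 point per gene, with orange bars at list medians. Only the inducible list holds points beyond 5, Hspa1a and Hspa1b, while the medians of the other lists lie between -0.06 and 0.26, apart from 0.53 for the list of Hsf2, Hsf4 and the HSF1-binding Hsbp1.

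Other stress lists were described in the same way. The unfolded protein response list, which reads ER stress, had replicate 2 highest for 2 of 11 and lowest for 4 (median -0.05), with Sesn2 at 0.93, Atf4 at 0.21, Herpud1 at 0.13 and Trib3 at -0.33. The oxidative stress list had it highest for 4 of 10 (median 0.0084), with Hmox1 at 1.10, the cystine transporter gene Slc7a11 at 0.79, Gclm at 0.10 and Srxn1 at -0.54. Of 16 immediate early genes, which respond within minutes to signals, it was highest for 6 and lowest for 4 (median 0.12). Fos, a subunit of AP-1, read 381 in replicate 2 against 95.0, 87.3 and 82.2. Ier3 differed by 1.52 and Zfp36 by 0.94, while Egr3 was lowest in replicate 2, at 36.2 units against 56.6 to 126. In these 3 lists 0 genes passed the genotype test.

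By likeness of profile, Fos was closest to the averaged inducible heat shock genes among 2665 other genes with a range of at least 2-fold over the arrays. Likeness was the root mean square distance, over 4 arrays, between log2 profiles each centred on its mean, the reference being the mean centred profile of the 6 inducible genes. That mean is carried mostly by Hspa1a and Hspa1b, at log2 differences of 6.09 and 5.14 in replicate 2, while Hsph1, Dnajb1 and Bag3 were at -0.26, -0.03 and -0.07. It is an average rather than the profile of any 1 of the 6. The distance was 0.0474 for Fos, 0.154 for Olfml2a, 0.227 for Acta2, 0.240 for Vldlr, 0.246 for Cd40lg and 0.253 for Slc2a1. Slc2a1, the main glucose transporter of the embryo, read 10226 in Hox13dKO replicate 2 against 4297, 3104 and 3026. Acta2, smooth muscle actin, read 2009 against 798, 604 and 522. After Hspa1a and Hspa1b, the genes highest in replicate 2 by log2 difference were Ndufa4l2 (3.46), Actc1 (3.41), Hoxd3os1 (3.11) and Myog (2.98). Actc1, Hoxd3os1 and Myog were higher in both Hox13dKO arrays than in both wild-type arrays. Hoxd3os1 read 492 and 1409 in Hox13dKO against 122 and 72.9 in wild type. Ndufa4l2 in wild type replicate 1 (5.91) and Myog in wild type replicate 2 (10.7) lay below the floor. Their differences depend on it. Ndrg1 and Adm, lower in that ranking, were 5.70-fold and 4.58-fold the highest other array, against 1.91-fold (Myog) to 3.11-fold (Ndufa4l2). All these genes were named after their values were seen. These profiles rest on 4 arrays.

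Markers of other cells moved with the same array in part. Muscle lineage genes (Myod1, Myf5, Myog, Pax3 and Actc1) had summed signals of 1401 and 3244 in Hox13dKO replicates 1 and 2. In wild type they summed to 317 and 358, and Hox13dKO replicate 2 was the highest array for 4 of 5. Pax3 did not share the rise, at 9.66 and 57.2 in Hox13dKO against 42.4 and 94.6 in wild type. Actc1 made up most of the Hox13dKO sums, at 880 and 2252 units, and it passed the genotype test (log2 difference 3.76 ± 0.41 SE, limma adjusted p = 0.0182). Endothelial genes summed to 2382 and 3102 against 2116 and 2113 (4 of 5 highest in replicate 2), and ectodermal genes to 4823 and 6801 against 5426 and 4869 (2 of 5). Macrophage genes summed to 1002 and 1016 against 859 and 1026 (2 of 5). Globin and other red cell genes summed to 91181 and 106084 against 75167 and 97989 (3 of 4), and neural crest and nerve genes to 233 and 397 against 483 and 519 (1 of 3). Of the markers of these other cell types Actc1 alone passed. None lay below the floor in Hox13dKO replicate 2, while Pax3 did in Hox13dKO replicate 1 (9.66) and Myog in wild type replicate 2 (10.7). The part of these markers in the heat shock signals was not tested. In bulk tissue more cells of a type cannot be told apart from more RNA per cell.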

How the data were processed

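Expression was measured in 4 arrays, 2 per group, each 1 sample, with groups taken from sample titles that call them biological replicates. Per the labels' protocols, biotin-labelled cRNA was made from total RNA by a one-cycle Affymetrix method. The deposited values are intensity per probe set on a linear scale, made by the authors with MAS5 per the submitters' processing notes, version not given in the sources used here. No read depth exists for arrays, and 2 per group limits the precision.

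The platform annotation gave 1 gene symbol to 34958 of 45101 probe sets, several to 932 and none to 9211; 34754 matched RefSeq (GRCm38.p6) by gene ID. The 64 control probe sets were left out. Signals were raised to the 20th percentile of all values (14.1 units) and log2 was taken. Probe sets with a geometric mean of at least 39.6 units (40th percentile) were tested, 27022 in all, and all 23 heat shock probe sets passed this filter. The genotype test used limma 3.58.1 under R 4.3.3 (eBayes with intensity trend, two-sided, 2 residual and 6.05 prior degrees of freedom), adjusted by Benjamini-Hochberg over all probe sets. The fit was also run on simulated arrays with independent noise. Those held no single deviating array and no shared replicate shift, so that run does not cover such features. Each gene was represented by its brightest probe set (highest mean log2). All heat shock genes are named. From every other list the 3 highest and the lowest gene in Hox13dKO replicate 2 were to be named; cell type lists are given as sums. Genes outside that rule are named after their values were seen. The members and lists were chosen with earlier results of these data known. Settings tried instead were other normalizations, floors, filters, priors, a replicate block, other handling of probe sets and leaving out arrays. Figures used matplotlib 3.10.9.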

Additional observations from a re-analysis of the deposited data

How the results depend on the processing

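The count of 0 heat shock probe sets called between genotypes held under 12 of the 15 alternatives. The exceptions left out an array, and the count ranged from 0 to 4 over the 4 such fits. The count over all probe sets, 56, moved to 0 without the filter (3159 at an unadjusted p under 0.05), 1 without the intensity trend, 95 with 1 probe set per gene and 11 to 525 with an array left out. With the replicate block it was 418, with 0 heat shock probe sets. The replicate differences of the groups correlated at 0.198, and median signals were 66.1 and 65.8 in the replicate 1 arrays against 81.2 and 85.7 in the replicate 2 arrays. The labels do not say that equal numbers share an origin.

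None of the following sign changes concerns a difference between genotypes that passed the test in the fit of all 4 arrays, and the cause was not tested. With 1 array left out, the range was -0.43 to 5.95 for Hspa1a, -0.29 to 0.11 for Hsph1, -0.0607 to 0.0236 for Bag3, -0.10 to 0.12 for Hsp90aa1, -0.16 to 0.12 for Hspd1 and -0.0385 to 0.15 for Hspe1, and the negative Hspa1a value came without Hox13dKO replicate 2. Hsp90aa1 was -0.0485 after quantile normalization and -0.0184 after median centring. Without probe sets whose names end in _x_at, _s_at or _a_at, Hspa8 was 0.72, Hsp90aa1 -0.0364 and Hspe1 -0.11. Each of these values comes from another probe set than the brightest. For Hspa8 it is the dim 1431182_at, while its brighter probe sets were at -0.11, 0.06 and 0.13. With the mean over probe sets Hspa8 was 0.20 and Hspe1 -0.0249.

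The inducible median of Hox13dKO replicate 2 against the other arrays was 2.60 without probe sets ending in _x_at, _s_at or _a_at, which left 4 genes. It was 0.0027 with Hsp90aa1 counted as inducible. In checks chosen after seeing the data it was -0.0312 with the Hspa1 pair counted as 1 and -0.0499 without it. The constitutive median was -0.072 after quantile normalization, 0.19 without probe sets of those endings, 0.17 without Hsp90aa1 and 0.24 with the mean over probe sets. Dim signals near the floor limit Hsp90aa1 1433251_at and the heat shock factors.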
